A study of Mus musculus with 407 samples.

Results

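Fibro-adipogenic progenitors (FAPs) are the resident mesenchymal stromal cells of skeletal muscle, and 9 genes that mark them were followed across 4 muscles and 6 ages of C57BL/6J mice. The 9 genes, chosen by symbol from the deposited gene tables, were Pdgfra, Ly6a, Dpp4, Pi16, Cd34, Angptl1, Clec3b, Mfap5 and Smoc2, out of 24458 gene symbols in the series. All 9 were found, each on a single row. Total RNA was sequenced from whole diaphragm, gastrocnemius, soleus and tibialis anterior (TA) of untreated female and male mice at 6 ages from 6 to 27 months (6, 12 and 18 months, then every 3 months). No allele, transgene or agent was given for any group. The libraries fell into 48 groups by sex, muscle and age, with 8 libraries in each 6-month group, 10 in each 27-month group and 6 to 10 in the others. All mice of an age were collected on 1 day, so age and collection day cannot be told apart. The labels do not tie muscles to animals, so the tests measure the spread between these libraries.

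FAPs lie between the myofibres, outside the basal lamina that covers satellite cells. They secrete extracellular matrix and growth factors that support satellite cells and fibre mass, and they can give rise to fibroblasts and adipocytes. Pdgfra encodes the alpha receptor for platelet-derived growth factor and Ly6a encodes Sca-1, the surface proteins usually used to sort these cells. Dpp4, a surface peptidase, and Pi16, a peptidase inhibitor, mark a stromal population found around vessels and in interstitial sheets of many tissues. Cd34 is a surface sialomucin carried by FAPs, endothelial cells and quiescent satellite cells, and endothelial cells also express Ly6a. Angptl1 encodes a secreted angiopoietin-like protein, Clec3b the plasminogen-binding protein tetranectin, Mfap5 a microfibril-associated glycoprotein and Smoc2 a calcium-binding matrix protein.

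The promoters of Angptl1 and Cd34 are printed because the age patterns of this pair were the most alike among the 9 genes, as described with the correlations. Each sequence is the 250 bases before the gene's start in RefSeq, mouse build GRCm38.p6, plus strand, written 5′ to 3′. The Angptl1 window is chr1:156838773-156839022 and the Cd34 window is chr1:194938571-194938820. Capitals mark a match to a searched motif.
Angptl1: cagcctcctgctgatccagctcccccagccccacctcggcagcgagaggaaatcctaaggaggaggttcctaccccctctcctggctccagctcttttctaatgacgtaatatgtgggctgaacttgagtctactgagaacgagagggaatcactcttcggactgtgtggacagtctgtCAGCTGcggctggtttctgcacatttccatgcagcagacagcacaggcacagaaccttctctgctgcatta
Cd34: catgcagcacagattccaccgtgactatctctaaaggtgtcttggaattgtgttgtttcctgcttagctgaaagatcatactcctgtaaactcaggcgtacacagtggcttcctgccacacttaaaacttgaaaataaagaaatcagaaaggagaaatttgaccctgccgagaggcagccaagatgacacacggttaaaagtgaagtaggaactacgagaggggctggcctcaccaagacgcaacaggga
Both strands were searched for the TATA box (TATAAA), the CCAAT box, the TEAD motif (GGAATG), the AP-1 motif (TGANTCA) and an E-box (CAGCTG). The Angptl1 window held 1 match, CAGCTG at 71 to 66 bases before the start, a motif present in 13% of 32851 RefSeq windows of this length. The Cd34 window held none of the 5. Its GC content was 46.4%, against 54.8% for Angptl1 and a median of 52.4% over all windows.

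In the RefSeq annotation of GRCm38.p6 the Pdgfra gene lies at chr5:75151322-75198206, Ly6a at chr15:74994877-74998031 and Dpp4 at chr2:62330073-62412315. Pi16 and Smoc2 are on the same chromosome, at chr17:29318796-29328903 and chr17:14279490-14404790. Cd34 and Angptl1 also share a chromosome, at chr1:194938821-194961292 and chr1:156839023-156861078. Clec3b lies at chr9:123150946-123157432 and Mfap5 at chr6:122513584-122529290.

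Libraries held 38583802 to 300089909 counts with a median of 72766895, and no 2 libraries held identical counts. The 9 genes had 16 to 22023 raw counts in a library, so none was at the limit of detection. The slow myosin gene Myh7 was at 2703 CPM (read counts scaled to library size) or more in every soleus library and at 100 or less in every TA library. Myh7 thus separated soleus from TA libraries in the direction of their labels. Summed Y-linked genes were at 68.2 CPM or more in every male library and at 6.34 or less in every female library. Xist was at 560 CPM or more in every female library and had a median of 0.136 CPM in males. It reached 154 CPM in a male soleus library, and the reason was not tested. Liver transcripts exceeded 10 times the muscle's median in 30 libraries, 2 of diaphragm, 11 of gastrocnemius, 8 of soleus and 9 of TA. In 11 libraries, 7 of diaphragm and 4 of gastrocnemius, gene levels depended on the GC content of the gene, with a slope more than 4 scaled median absolute deviations from the median of the muscle. These 11 are called the GC-dependent libraries, and calls at 6 and 27 months that changed when they were left out are given with and without them.

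Clec3b and Pi16 were the members that stood furthest from their groups in the GC-dependent libraries. The transcripts of Clec3b were 60.2% GC, at percentile 96.6 of the genes measured, and those of Pi16 56.5%, at percentile 84.4. The median gene was 50.1% GC. In male diaphragm replicate 2 at 6 months, Clec3b was at 0.418 CPM and Pi16 at 1.72 CPM, against group medians of 26.5 and 67.0 CPM. In the same library Cd34 (151 CPM) and Angptl1 (92.6 CPM), whose transcripts are 46.8% and 44.7% GC, were the highest of their group. Across all libraries, with group means taken off, the correlation (Pearson's r) with the GC slope of the library was 0.86 for Clec3b and 0.69 for Pi16. Without the 11 libraries these values were 0.02 and -0.05 over 396 libraries. Points within a muscle share library preparation and depth, and the values are descriptive.

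**Figure D1:**
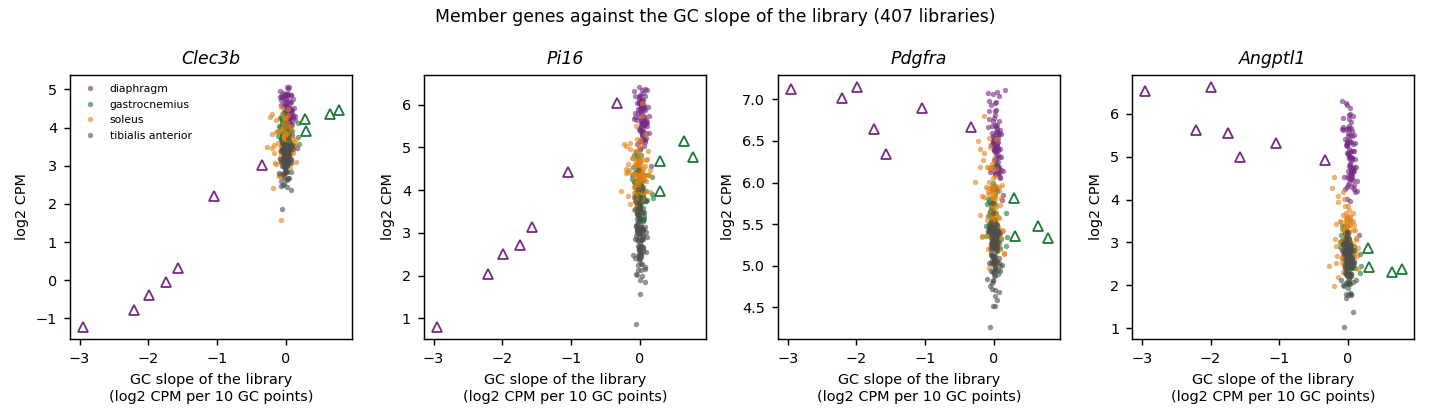
Level of 4 of the genes (vertical axis, log2 CPM) in each library against the library's GC slope (horizontal axis, log2 CPM per 10 GC points), coloured by muscle, with the 11 GC-dependent libraries as open triangles. Clec3b and Pi16 fall to their lowest values in the diaphragm libraries with the most negative slopes, whereas Pdgfra and Angptl1 do not.

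The first comparison asked how the genes were distributed over the 4 muscles of young adult mice. At 6 months the diaphragm had the highest mean level of all 9 genes in both sexes, and all 9 were higher in diaphragm than in TA in both sexes (edgeR quasi-likelihood test, Benjamini-Hochberg adjusted p at most 0.00185). Between diaphragm and TA 74.7% of all genes tested differed in females and 66.9% in males in either direction, so the count of genes called is not particular to these 9. The size of the difference varied widely among members. Angptl1 and Dpp4 differed most and Smoc2 and Ly6a least, except that in males without the GC-dependent libraries Pi16 (2.84, log2) stood above Dpp4 (2.73).

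Angptl1 ranged from 33.6 CPM through a median of 61.9 to 99.3 CPM in the 8 female diaphragm libraries, and from 5.37 through 8.19 to 9.44 CPM in the 8 female TA libraries. The ranges did not overlap. The log2 fold change of diaphragm over TA was 3.09 ± 0.16 (SE) in females and 3.11 ± 0.16 in males. For the peptidase gene Dpp4 the corresponding values were 3.12 and 2.83, and for its stromal partner marker Pi16 they were 2.40 and 2.67. Pdgfra, the marker most used for FAPs, was at 84.1, 119 and 142 CPM (lowest, median and highest) in female diaphragm and at 28.2, 37.3 and 43.8 CPM in female TA. Again no library of one muscle reached the range of the other. Its log2 fold change was 1.64 in females and 1.51 in males, close to that of Cd34 (1.57 and 1.68) and Mfap5 (1.63 and 1.87).

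Smoc2 and Ly6a were more evenly spread. Smoc2 was at 56.4, 70.1 and 77.3 CPM in female diaphragm and at 41.6, 52.5 and 58.4 CPM in female TA, and these ranges overlapped. Its diaphragm over TA log2 fold change was 0.47 ± 0.09 in females and 0.52 ± 0.08 in males. Ly6a differed by 0.72 ± 0.11 and 0.71 ± 0.13. In this contrast the median of all genes tested lay at 0.09 in females and 0.11 in males, and for diaphragm over gastrocnemius at 0.11 and 0.14, so these small differences stood on a shift of about that size.

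The order of means at 6 months was diaphragm, soleus, gastrocnemius and TA for 7 genes in both sexes. Clec3b and Smoc2 departed from it with gastrocnemius above soleus. For Clec3b these neighbours did not differ beyond their spread (0.06 in females, adjusted p = 0.893, and 0.26 in males, adjusted p = 0.543). For Smoc2 the gastrocnemius level exceeded the soleus level by 0.35 ± 0.09 (log2) in females (adjusted p = 0.00117) and 0.47 ± 0.08 in males (adjusted p = 1.56e-05). Diaphragm and gastrocnemius did not differ beyond their spread for Smoc2 in females (0.08 ± 0.09, adjusted p = 0.418). Gastrocnemius and TA were the pair separated for the fewest genes when all libraries were used. They differed for 5 of 9 genes in females and 2 of 9 in males (16.2% and 12.6% of all genes), and without the GC-dependent libraries for 6 in each sex (27.9% and 29.2%). For Ly6a they differed by 0.09 ± 0.11 in females (adjusted p = 0.664) and 0.11 ± 0.13 in males (adjusted p = 0.685). Over the 6 pairs of muscles, 42 of 54 gene and pair combinations differed in females and 40 of 54 in males, where 54.8% and 48.1% of all gene and pair combinations differed. The counts without the GC-dependent libraries were 46 and 47, where 63.7% and 62.1% of all combinations differed.

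Without the GC-dependent libraries 11 muscle comparisons of the 9 genes gained a call and 0 lost one. Of these, 6 were of Clec3b, 3 of Pi16 and 1 each of Cd34 and Pdgfra. For Clec3b, with all libraries its diaphragm level did not separate from gastrocnemius (0.34 ± 0.30 in females, adjusted p = 0.320, and 0.59 ± 0.32 in males, adjusted p = 0.104). Without those libraries the differences were 0.52 (adjusted p = 0.000164) and 0.78 (adjusted p = 1.29e-06). Pi16 then differed between gastrocnemius and soleus in both sexes (-0.56, adjusted p = 0.00342 in females, and -0.43, adjusted p = 0.0101 in males) and between gastrocnemius and TA in males (0.90, adjusted p = 2e-05). With all libraries the adjusted p of these 3 was 0.0847, 0.358 and 0.0526. Between gastrocnemius and TA in males, Cd34 moved from an adjusted p of 0.127 to 0.0112 and Pdgfra from 0.0523 to 0.0257.

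Per kilobase of exon, the scale on which genes can be compared, Ly6a was the highest member in female diaphragm at 29.8 CPM per kb. Clec3b followed at 22.8, Angptl1 at 22.3, Cd34 at 12.6, Pdgfra at 11.3, Smoc2 at 9.94, Pi16 at 8.43, Dpp4 at 7.05 and Mfap5 at 5.89 CPM per kb. In female TA Ly6a again led at 18.6 CPM per kb and Dpp4 was lowest at 0.833.

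In bulk tissue more cells of a type and more RNA per cell cannot be told apart. Other lists of markers also differed between the muscles. The summed level of 8 mesothelial genes was 125 to 401 CPM in diaphragm libraries at 6 and 27 months and at most 8.41 CPM in the other muscles, where Upk3b, Wt1 and Upk1b had a median of 0. The summed level of 12 macrophage genes was 214 to 588 CPM in diaphragm and at most 288 CPM elsewhere, and 11 myofibre genes summed to at most 129557 CPM in diaphragm and at least 153241 CPM elsewhere. Their part in the muscle difference was not tested.

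**Figure D2:**
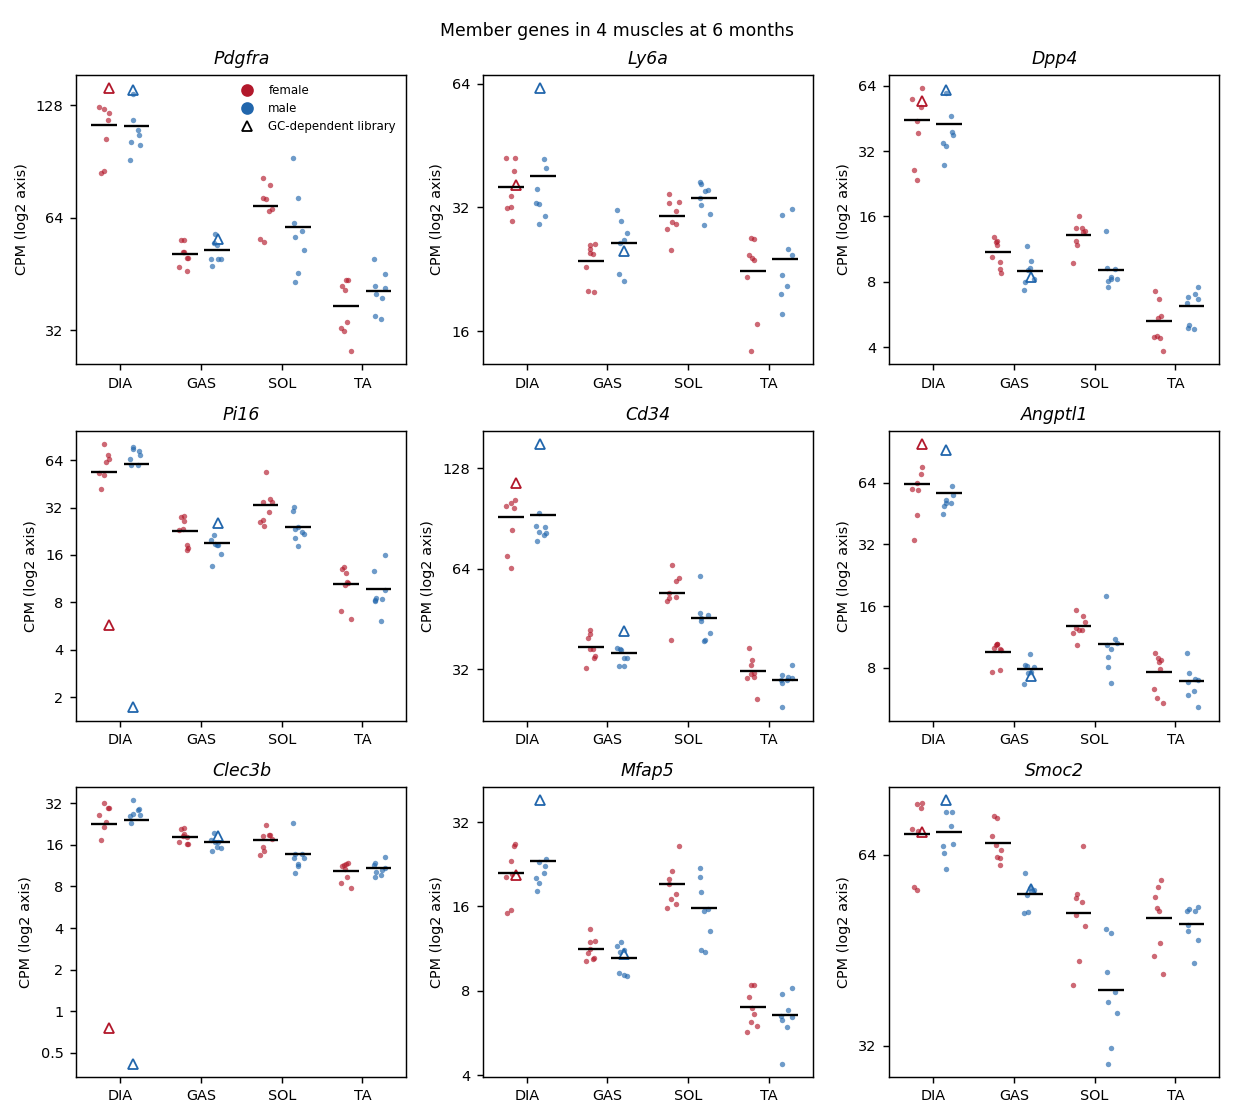
Levels of the 9 genes at 6 months in each of the 4 muscles, by sex, in CPM, with 8 libraries per group. Diaphragm has the highest mean for every gene, and for Angptl1 every diaphragm library lies above every library of the other muscles.

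The second comparison asked which genes changed with age, with each older age set against 6 months within a muscle and sex. The direction of calls was downward throughout: 89 of 360 gene, age and muscle-sex combinations were lower than at 6 months (adjusted p under 0.05) and 0 were higher in edgeR. Of all genes tested over these comparisons 3.81% were lower and 4.36% higher. Limma-voom and DESeq2 also called 0 higher. At an unadjusted p under 0.05, 169 of the 360 were lower and 3 higher in edgeR. No share of all genes is given at this threshold, here or for the later unadjusted counts. The 3.81% and 4.36% are shares at the adjusted p. The number of lower calls was 0 of 72 at 12 months (0.0929% of all genes tested), 12 at 18 months (1.22%), 21 at 21 months (4.69%), 23 at 24 months (5.74%) and 33 at 27 months (7.32%). The 5 ages share the same 6-month libraries, so these counts are not independent of each other. The 12 calls at 18 months were unevenly spread: 8 were in female gastrocnemius, where 3.31% of all genes were lower. Male gastrocnemius had 2, female soleus and male diaphragm 1 each, and the other sets 0. At 21 months female gastrocnemius had 6. Several female gastrocnemius libraries at 18 months carried liver transcripts, and the count of this set without them is not given. At 12 months 14 of the 72 combinations were lower at an unadjusted p under 0.05 in edgeR, 16 in limma-voom and 15 in DESeq2. Without the GC-dependent libraries 2 combinations were called at 12 months, Clec3b in female gastrocnemius (-0.27 ± 0.07) and in male gastrocnemius (-0.35 ± 0.09). In these sets 0.43% and 0.387% of all genes were lower.

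At 27 months the female soleus and male TA had the most members called. In female soleus 7 of 9 were lower, where 8.74% of all genes were, and the median log2 fold change of the 9 was -0.67. In male TA the count was also 7, against 7.81% of all genes, with a median of -0.57. In female gastrocnemius 6 were lower (14.6% of all genes, median -0.33) and in male gastrocnemius 5 (12.6%, median -0.38). Female diaphragm had 4 lower calls against 0.988% of all genes (median -0.61), and male diaphragm 3 against 3.52% (median -0.47). Female TA had 1 (9.84%, median -0.21) and male soleus 0 (1.05%, median -0.37). The median of all genes in these 8 comparisons lay between -0.03 and 0.03. In male TA every call came at 27 months, with 0 lower at 12, 18, 21 and 24 months. At 24 months the median of the 9 there was -0.17, and 6.3% of all genes were lower.

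The diaphragm counts depended on the GC-dependent libraries. Without them 6 genes were lower in female diaphragm, where 2.97% of all genes were and Pi16 (-0.65, adjusted p = 0.0192) and Pdgfra were added. In male diaphragm 5 were lower, where 5.29% of all genes were and Pi16 (-0.53, adjusted p = 0.0353) and Clec3b (-0.59, adjusted p = 0.00935) were added. The counts in the other 6 muscle and sex sets were the same without these libraries. In male soleus 5 genes were lower at an unadjusted p under 0.05 in edgeR and in limma-voom. DESeq2 called 1 there, and a fit with the run of sample numbers as a term called 4. The same term reduced male diaphragm to 1 gene. No share of all genes is given for the DESeq2 and run-term fits.

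**Figure D3:**
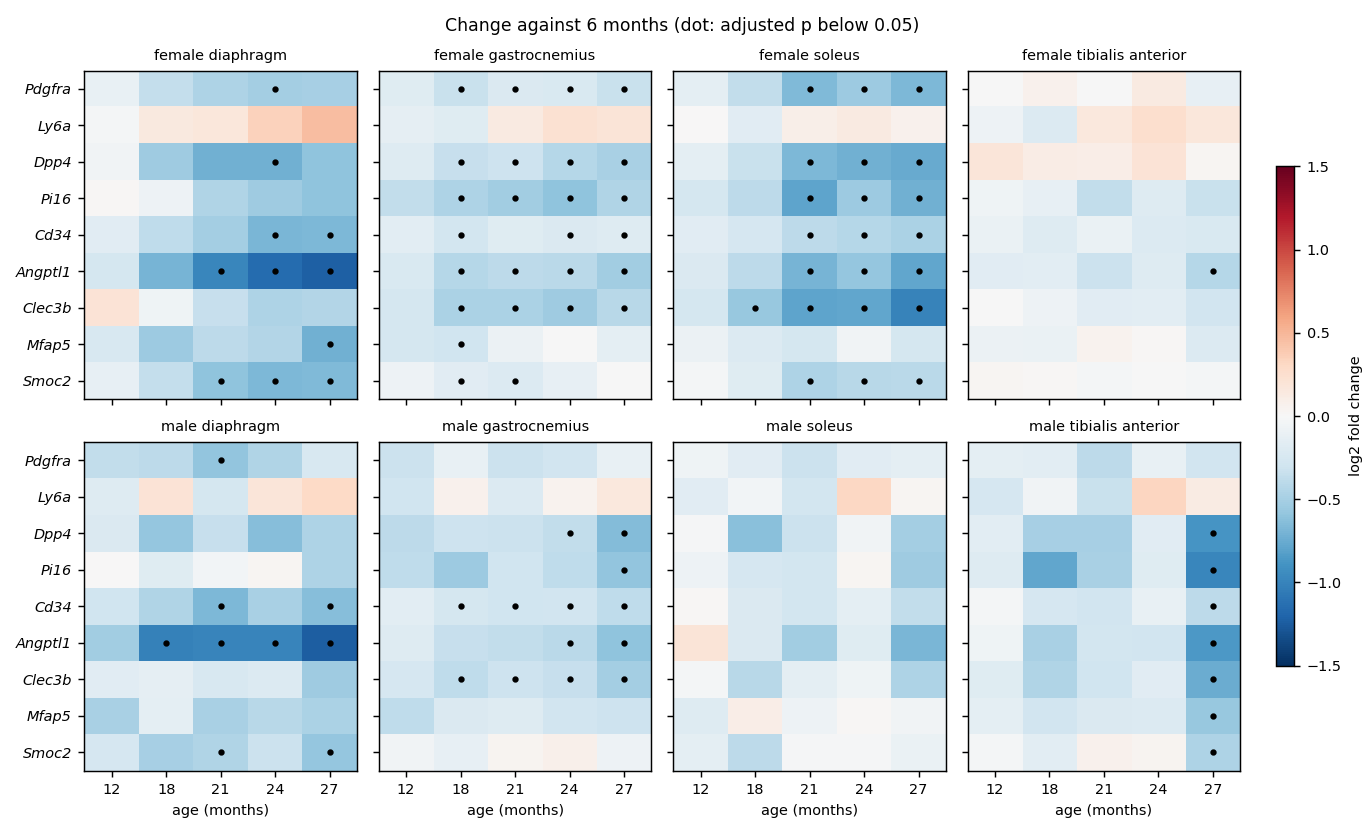
Log2 fold change of each gene against 6 months (colour, blue lower and red higher) at each older age, by sex and muscle, with a dot where the adjusted p is below 0.05. All 89 dots lie on lower values, and Ly6a has none.

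Angptl1, the secreted angiopoietin-like factor, showed the most consistent fall, with 7 of 8 muscle and sex sets called lower at 27 months and log2 fold changes from -1.24 to -0.43. In male diaphragm the 6-month libraries were at 44.9, 52.1 and 92.6 CPM (lowest, median and highest) and the 27-month libraries at 9.05, 23.8 and 39.4 CPM. All 10 of the oldest libraries lay under the lowest young one, and the log2 fold change was -1.24 ± 0.20 (adjusted p = 0.00014). Without the GC-dependent libraries the mean was 52.4 ± 5.31 CPM (SD, n = 7) at 6 months and 23.6 ± 9.23 CPM (n = 9) at 27 months.

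In female diaphragm Angptl1 was at 33.6, 61.9 and 99.3 CPM at 6 months and at 16.2, 25.3 and 49.5 CPM at 27 months. The ranges overlapped, and the fold change was -1.23 ± 0.21 (adjusted p = 0.000402). The group means in female diaphragm were 63.4, 53.2, 39.5, 32.4, 28.9 and 27.1 CPM from the youngest to the oldest age, so most of the difference was present by 21 months. In males they were 57.5, 40.8, 29.0, 29.3, 29.3 and 24.5 CPM, with little difference between the means of 18 to 24 months.

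Outside the diaphragm Angptl1 was lower at 27 months in female soleus (-0.78 ± 0.14, adjusted p = 8.17e-05), from 10.3, 12.4 and 15.3 CPM to 4.99, 7.91 and 9.34 CPM, with no overlap. In male TA it fell from 5.11, 6.85 and 9.45 CPM to 2.02, 3.68 and 5.72 CPM (-0.86 ± 0.14, adjusted p = 2.1e-05). The ranges there overlapped slightly. Male soleus was the set without a call (-0.69 ± 0.21, adjusted p = 0.0607).

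Cd34 was lower in 6 of 8 sets at 27 months, with smaller changes of -0.68 to -0.20. In male gastrocnemius it was at 32.6, 35.6 and 41.5 CPM at 6 months and at 22.6, 27.4 and 33.5 CPM at 27 months. Only the top of the older range reached the young one, and the fold change was -0.38 ± 0.07 (adjusted p = 0.000117). In female diaphragm, the set with the largest fall, it moved from 64.5, 98.0 and 115 CPM to 40.5, 55.6 and 98.1 CPM (-0.68 ± 0.15, adjusted p = 0.0068). The highest 27-month value there, 98.1 CPM, came from a GC-dependent library, and without such libraries the older range ended at 59.1 CPM. Endothelial cells and quiescent satellite cells also carry Cd34. The summed level of 12 endothelial genes had a median of 400 CPM at 6 months and 393 CPM at 27 months in female diaphragm. Over the 8 sets at 27 months, 10 of 96 combinations of these endothelial genes were lower and 4 higher. Satellite cell genes gave 28 lower and 0 higher of 64, where 7.32% of all genes tested at 27 months were lower. The part of endothelial and satellite cells in the Cd34 change was not tested.

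Clec3b was lower in 4 of 8 sets at 27 months. Its largest fall was in female soleus, from 13.4, 18.0 and 22.4 CPM to 2.98, 9.74 and 12.3 CPM. No 27-month library reached the lowest 6-month library, and the fold change was -1.0 ± 0.17 (adjusted p = 2.63e-05). In male TA the change was -0.75 ± 0.13 (adjusted p = 3.34e-05), in male gastrocnemius -0.51 ± 0.10 (adjusted p = 9.72e-05) and in female gastrocnemius -0.42 ± 0.08 (adjusted p = 4.79e-05). In female gastrocnemius all libraries at 18, 21 and 24 months lay under the 6-month range.

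Pi16 and Dpp4, the pair that marks the adventitial stromal population, were each lower at 27 months in female gastrocnemius, female soleus, male gastrocnemius and male TA. Without the GC-dependent libraries Pi16 was also lower in both diaphragms, and Dpp4 was not. Pi16 fell most in male TA, from 6.07, 8.48 and 16.0 CPM to 1.83, 4.08 and 11.7 CPM (-0.98 ± 0.26, adjusted p = 0.00633). The ranges overlapped, but the median of the older libraries lay below the lowest young one. Dpp4 in male TA fell from 4.83, 6.54 and 7.60 CPM to 1.90, 2.96 and 5.70 CPM (-0.88 ± 0.17, adjusted p = 0.000199). In female TA Dpp4 was at 3.83, 4.97 and 7.22 CPM at 6 months and at 2.98, 5.03 and 7.45 CPM at 27 months, nearly the same range, and the change was 0.02 ± 0.14 (adjusted p = 0.933).

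Dpp4 was at 23.4, 47.5 and 62.7 CPM in female diaphragm at 6 months and at 24.8, 28.7 and 35.2 CPM at 27 months. The spread between young libraries was wide, and the difference of -0.61 ± 0.20 did not pass (adjusted p = 0.116). In male diaphragm the difference of -0.46 ± 0.21 (adjusted p = 0.153) was called only without the libraries that carried liver transcripts (-0.64, adjusted p = 0.0188).

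Pdgfra was lower at 27 months in 2 of 8 sets, both female. In gastrocnemius it was at 46.3, 50.9 and 55.9 CPM at 6 months and at 37.7, 39.7 and 44.4 CPM at 27 months. The groups did not overlap, although the change was small (-0.33 ± 0.05, adjusted p = 7.49e-07). In soleus it fell from 55.2, 69.7 and 81.7 CPM to 31.4, 42.3 and 62.5 CPM (-0.67 ± 0.13, adjusted p = 0.000231). Female diaphragm did not pass with all libraries (-0.50 ± 0.15, adjusted p = 0.0682) and did without the GC-dependent ones (-0.55, adjusted p = 0.013). The 4 male changes ran from -0.29 ± 0.13 in TA to -0.12 ± 0.11 in gastrocnemius, and none passed.

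**Figure D4:**
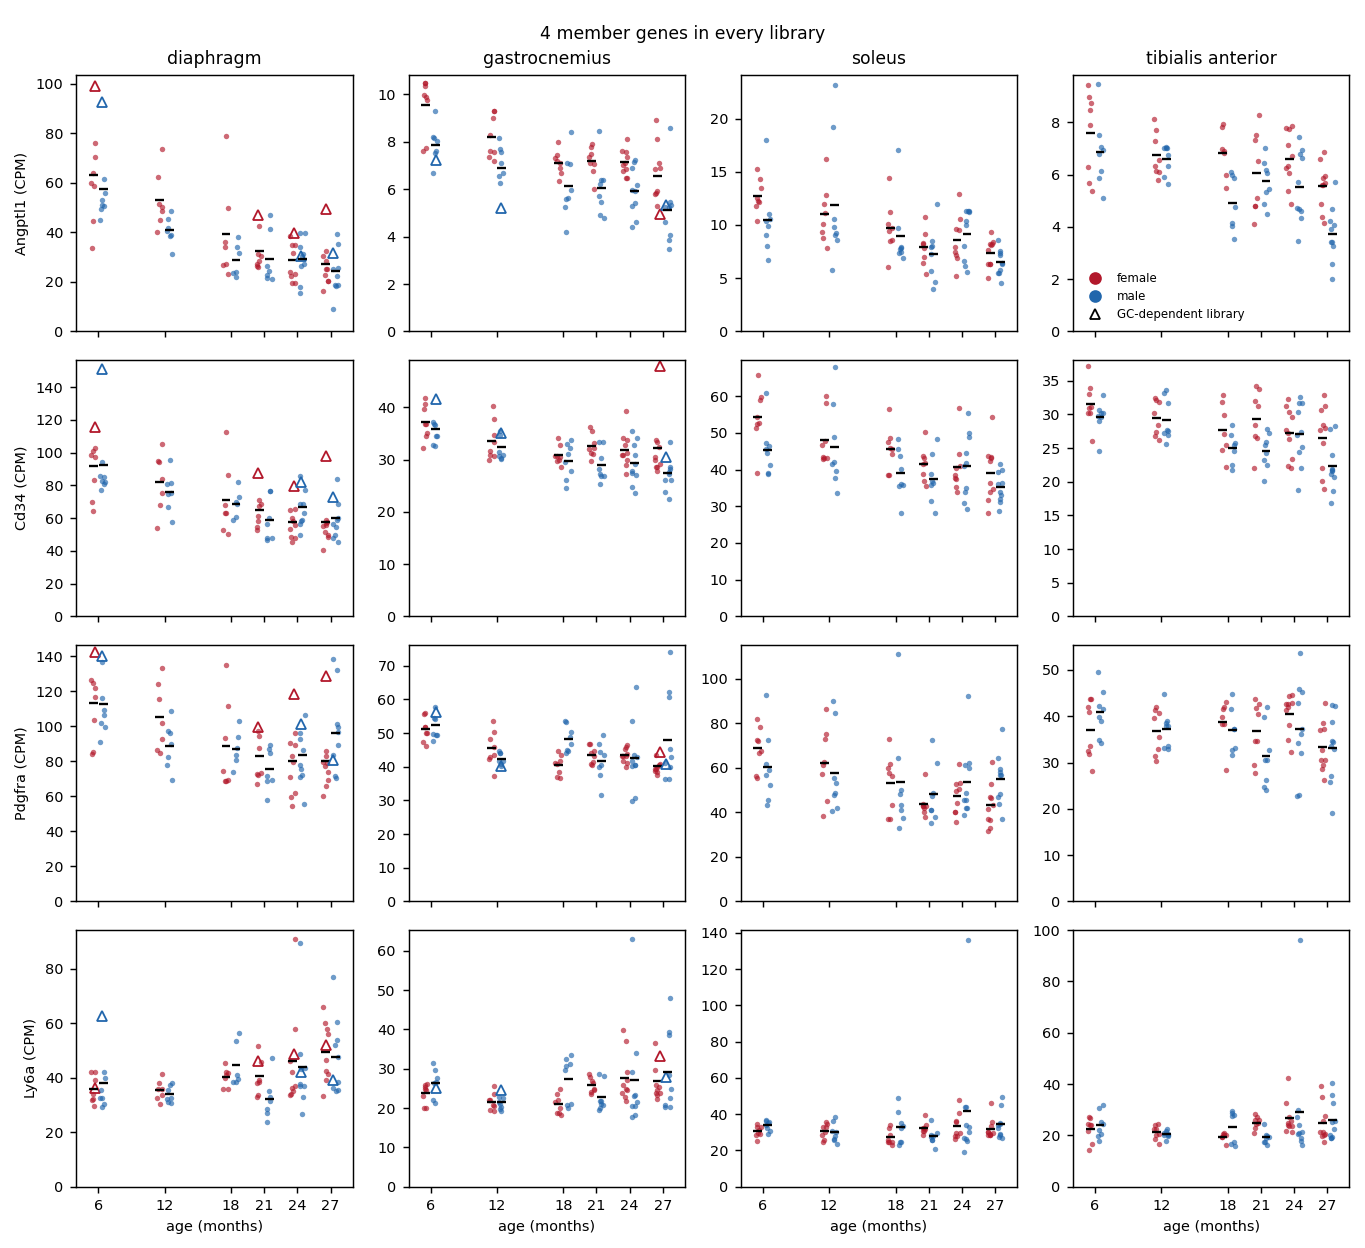
Levels of Angptl1, Cd34, Pdgfra and Ly6a (vertical axis, CPM) in every library by age in months, muscle and sex. Angptl1 and Cd34 move down with age in both diaphragm panels, and the Ly6a points at 27 months spread upward of the 6-month points.

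Smoc2 was lower at 27 months in 4 of 8 sets: both diaphragms, female soleus and male TA. In female diaphragm all 10 older libraries (28.1, 48.1 and 53.4 CPM) lay under the 6-month libraries (56.4, 70.1 and 77.3 CPM), a change of -0.66 ± 0.14 (adjusted p = 0.00581). In female gastrocnemius the values were 61.8, 65.7 and 73.8 CPM at 6 months and 61.0, 65.9 and 74.6 CPM at 27 months. These ranges almost coincided, with a change of -0.0044 ± 0.05 (adjusted p = 0.952).

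Mfap5, of the microfibrils, was lower in 2 of 8 sets, female diaphragm (-0.72 ± 0.17, adjusted p = 0.0137) and male TA (-0.57 ± 0.13, adjusted p = 0.00159). In female diaphragm it was at 15.2, 20.8 and 26.8 CPM at 6 months and at 8.01, 13.7 and 17.4 CPM at 27 months, which overlapped at their edges. In male soleus the change was -0.05 ± 0.20 (adjusted p = 0.959).

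Ly6a, encoding Sca-1, was the member with no call below 6 months at any age. Its group means at the earlier ages were often lower than at 6 months, in 7 of 8 sets at 12 months, 5 at 18 months and 4 at 21 months, down to 79.9% of the 6-month mean in male TA at 21 months. At 24 and 27 months 0 of 8 means were lower. At 24 months replicate 8 raised the means of male gastrocnemius (63.2 CPM), soleus (136 CPM) and TA (96.1 CPM), where it was highest. Without the GC-dependent libraries the male gastrocnemius median was 22.3 CPM at 24 months, below the 26.7 CPM at 6 months. The log2 change of Ly6a at 27 months was above 0 in all 8 sets, from 0.02 to 0.46, and 0 of 8 passed in edgeR, limma-voom or DESeq2. At an unadjusted p under 0.05 the counts were 1, 1 and 2. In female diaphragm Ly6a was at 29.6, 35.2 and 42.2 CPM at 6 months and at 33.2, 49.2 and 65.8 CPM at 27 months (0.46 ± 0.15, adjusted p = 0.0883). The median of the older libraries lay above the highest young library. A fit with the run of sample numbers as a term called this difference (0.56, adjusted p = 0.0401). In male soleus the change was 0.02 ± 0.21 (adjusted p = 0.983), and its sign turned under that fit (-0.03).

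Over all 6 ages, the Bayesian information criterion (BIC) was used to choose between a constant, a line and a logistic curve for each gene in each set. Age was on a log scale, so a linear trend is constant per doubling of age and not per month. Of 72 gene and set combinations, 32 had a falling trend (31 linear and 1 late logistic) and 1 had a rising one. When the GC-dependent libraries were left out, 36 fell and 1 rose, for which no share of all genes is given. Female soleus had 7 falling genes (9.04% of all genes), male TA 7 (6.86%), female diaphragm 6 (3.46%), female gastrocnemius 5 (11.9%), male gastrocnemius 4 (10.7%), male diaphragm 3 (3.09%) and both female TA (8.37%) and male soleus (1.95%) had 0. In male TA the tests against 6 months called 0 genes before 27 months, so its trends do not show a gradual fall. Angptl1 fell in 6 sets, Cd34 and Dpp4 in 5, Clec3b and Smoc2 in 4, Pdgfra and Pi16 in 3 and Mfap5 in 2. The logistic fall was Smoc2 in male TA with its inflection at 27 months. That is the last age sampled and the upper end of the search, so the age of inflection is not determined. The rise was Ly6a in female gastrocnemius, a curve with its inflection at 20.25 months, in a set where 11.1% of all genes rose.

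The third comparison asked whether levels or changes differed between the sexes or muscles. At 6 months 4 of 36 gene and muscle combinations differed, all higher in females. Smoc2 was higher in female gastrocnemius by 0.28 ± 0.06 (log2, adjusted p = 9.98e-05) and in female soleus by 0.42 ± 0.13 (adjusted p = 0.0307). Dpp4 was higher in female soleus by 0.56 ± 0.19 (adjusted p = 0.0462), with 9.73 to 16.1 CPM in females and 7.54 to 13.7 CPM in males. Angptl1 was higher in female gastrocnemius by 0.30 ± 0.11 (adjusted p = 0.0495), a call lost without the GC-dependent libraries (adjusted p = 0.0687). The share of all genes that differed, in either direction, was 0.512% in diaphragm, 19.8% in gastrocnemius, 8.41% in soleus and 13.6% in TA. The 4 calls were in gastrocnemius and soleus, and no member was called in TA. Beside these shares, a count of 4 of 36 does not set the members apart from all genes. The share of all genes higher in females is not given, so the direction of the 4 calls cannot be set against it.

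The change from 6 to 27 months differed between the sexes for 1 of 36 combinations, where 1.02% of all genes tested differed. Dpp4 in TA changed by 0.91 ± 0.23 more in the upward direction in females than in males (adjusted p = 0.0171), in a muscle where 1.73% of all genes differed. Female Dpp4 was near its young range in TA and male Dpp4 was below it, as given above. For Pdgfra, called in females and not in males, no difference between the sexes passed this test.

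Between muscles, the change with age differed for 5 of 54 combinations in females, where 2.05% of all gene and pair combinations differed. Smoc2 fell more in diaphragm than in gastrocnemius (-0.65 ± 0.14, adjusted p = 0.00338) and than in TA (-0.62 ± 0.14, adjusted p = 0.00512). Angptl1 fell more in diaphragm than in TA (-0.79 ± 0.21, adjusted p = 0.0228). Dpp4 (-0.77 ± 0.20, adjusted p = 0.0174) and Pdgfra (-0.53 ± 0.16, adjusted p = 0.0391) fell more in soleus than in TA. Without the GC-dependent libraries the female count was 9 (6.15% of all), with Angptl1 and Cd34 added for diaphragm and gastrocnemius, Cd34 for diaphragm and TA and Clec3b for soleus and TA. In males 0 of 54 (0.876% of all) passed in edgeR and in limma-voom, with 6 at an unadjusted p under 0.05 in each.

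How the 9 genes varied with each other was described by correlations, which share libraries and depth and carry no test. Over the 48 group means Pdgfra and Cd34 were at r = 0.97. After the mean of each muscle and sex was taken off, which leaves the age pattern, Cd34 and Angptl1 had r = 0.95 and Pi16 and Clec3b r = 0.92. Ly6a stood apart, with r between -0.47 and -0.03 with the other 8. Between libraries within groups, Cd34 and Angptl1 had r = 0.72 over all libraries and 0.73 over the 396 libraries without GC dependence. Other relations differed with the GC-dependent libraries: Cd34 and Clec3b were at r = 0.03 with them and 0.77 without them, and Pi16 and Cd34 at 0.26 and 0.73.

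**Figure D5:**
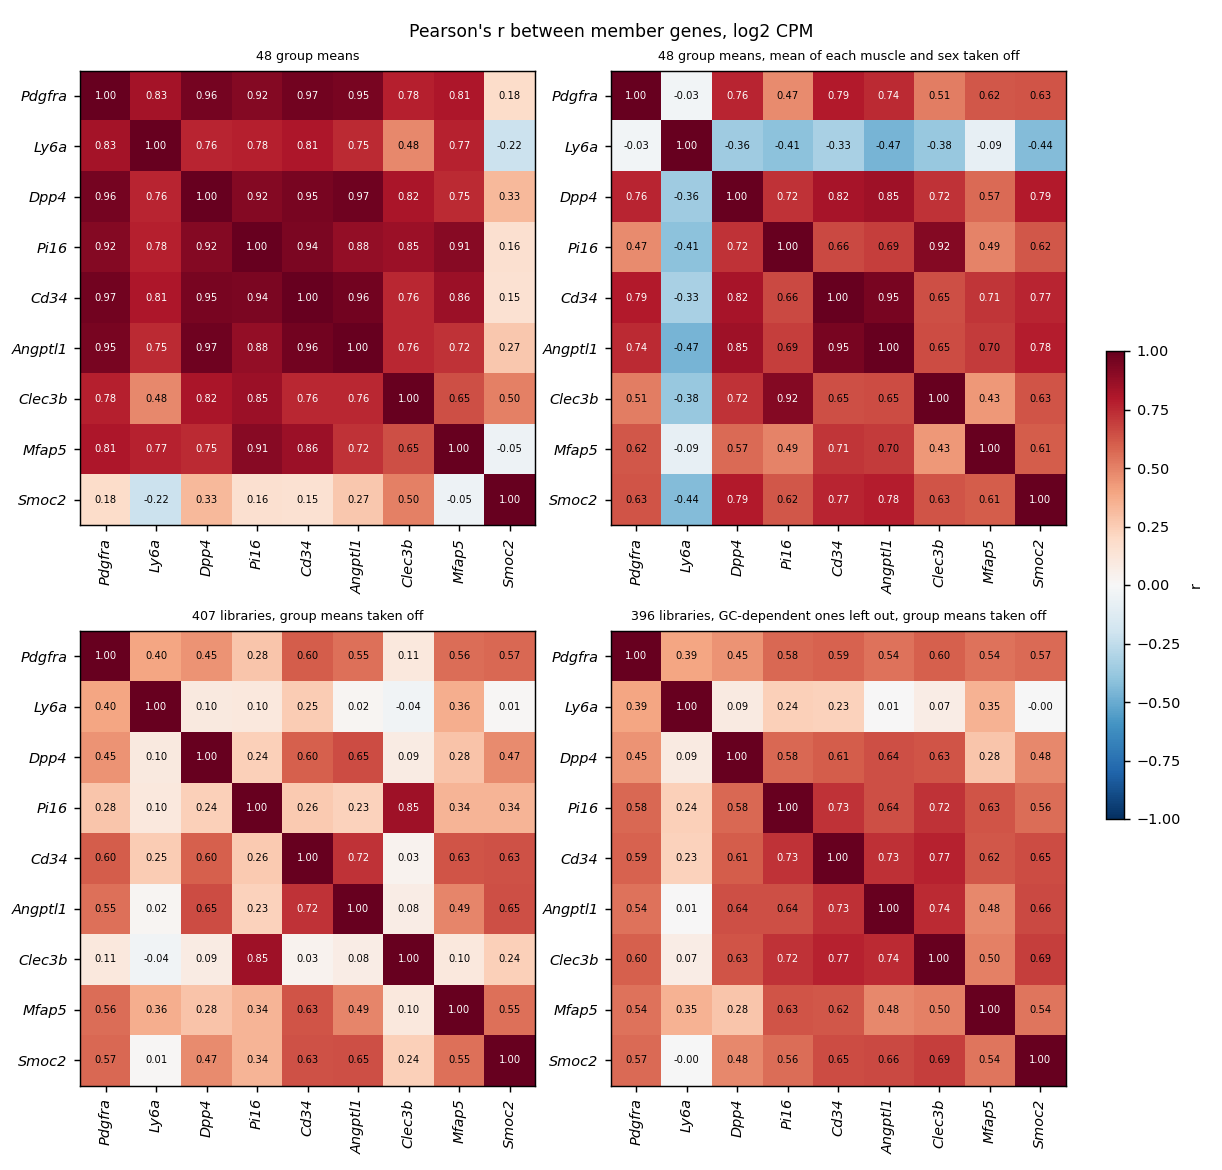
Pearson's r between the 9 genes in log2 CPM over 48 group means, over these with the mean of each muscle and sex taken off, over all libraries with group means taken off, and over 396 of them without the GC-dependent libraries. Cd34 and Angptl1 stay at 0.72 or above in the last 3 panels, and the Clec3b row changes between the last 2 panels. Ly6a is negatively related to the rest in the second panel and reaches at most 0.39, with Pdgfra, in the last.

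Of the 14182 genes tested in all 8 sets, those with patterns most like Pdgfra over the 48 group means were Fam102b (r = 0.98), Ddr2, Pid1, Abca8a and Rnase4 (0.97 each). Ddr2 encodes a collagen receptor. Those most like the mean of the 9 genes were Reck, Pcolce and Fbln1 (0.98 each), Abca9 and Fbln5 (0.97 each). Reck encodes an inhibitor of matrix metalloproteinases, Pcolce an enhancer of procollagen processing, and Fbln1 and Fbln5 are fibulins of the matrix. With the mean of each muscle and sex off, Plxdc2 (0.93) and Col6a1 (0.93) were most like the mean of the 9 and Dsel (0.88) and Pcdh18 (0.86) most like Pdgfra. The median over all genes was between -0.04 and 0.00.

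The other genes of the stroma and of the same pathway, taken from lists chosen with earlier results known, were counted at 27 months over the 8 sets. Of 36 other FAP genes, 60 of 287 gene and set combinations were lower (20.9%) and 16 higher (5.57%). Of all genes tested at 27 months 7.32% were lower and 8.01% higher, the background for each list below. Female soleus had 17 lower of 36 (8.74% of all genes) and male TA 14 (7.81%). Serpinf1, which encodes the antiangiogenic serpin PEDF, and Col15a1, a basement membrane collagen, were each lower in 6 sets, with log2 changes that averaged -0.64 and -0.58. Gsn was lower in 5 and Igfbp6 in 4. The 16 higher calls of this list were of genes not named here.

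The 6 PDGF ligands and receptors gave 9 lower and 3 higher of 48. Pdgfrl, a receptor-like gene, was lower in 7 of 8 sets with a mean of -0.84. The ligand gene Pdgfc was higher in 2, Pdgfa lower in 1, and the beta receptor Pdgfrb lower in 1. The fibrillar collagen and fibrogenic list gave 42 lower and 6 higher of 96. Col1a2 and Sparc, encoding a chain of type I collagen and the matrix protein osteonectin, were lower in 8 of 8 sets, with means of -1.10 and -0.65. Col1a1 (-1.22) and Col3a1 (-0.88) were lower in 6. The 6 higher calls of this list were of genes not named here.

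Markers of other cells also moved with age, beside the 7.32% lower and 8.01% higher of all genes tested. Tenocyte genes gave 36 lower and 1 higher of 72, with Cilp2, Kera and Chad lower in 6 sets and Tnmd in 5. Their summed level fell from a median of 960 to 423 CPM in female soleus and from 364 to 204 CPM in male TA, the 2 sets with the most members called, and none of the 9 tenocyte genes had a median of 0 in any muscle. Satellite cell genes gave 28 lower and 0 higher of 64, with Chodl lower in 8 sets, Calcr in 6 and Pax7 and Myf5 in 4. Macrophage genes gave 3 lower and 16 higher of 96, with Mpeg1 and Cd68 higher in 4 sets and Fcgr1 and Cx3cr1 in 2, and their sum in male diaphragm had medians of 276 and 427 CPM at 6 and 27 months. The mesothelial sum in female diaphragm had medians of 277 and 175 CPM. The part of these cells in the changes of the 9 genes was not tested.

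The lists of the remaining cell types are given beside all genes tested at 27 months, of which 7.32% were lower and 8.01% higher. Shares of lower calls were 13.9% for pericyte and smooth muscle genes, 11.4% for myofibre, 10.9% for Schwann cell and 10.4% for endothelial genes, and under 7.32% for the other lists of this group. Endothelial genes gave 10 lower and 4 higher of 96, with Tek lower in 5 sets, Tie1 in 3, Vwf higher in 2 and Emcn higher in 1. Pericyte and smooth muscle genes gave 10 lower and 5 higher of 72, with Rgs5 lower in 4, Abcc9 in 2, Higd1b in 1 and Mcam higher in 1. Adipocyte genes gave 2 lower and 5 higher of 88, with Cebpa higher in 2 sets, Lpl lower in 2 and higher in 1, and Lep and Plin1 higher in 1. Schwann cell genes gave 7 lower and 3 higher of 64, with Pmp22 lower in 4. Immediate early genes gave 4 lower and 3 higher of 64, with Nr4a1 lower in 3. Myofibre genes gave 10 lower and 11 higher of 88, with Tnnt1 higher in 3 and Myh7 in 2, and Myh4 and Tnnt3 lower in 2. Mesothelial genes gave 1 lower (Gpm6a) and 1 higher (Msln) of 36, and liver genes 5 lower and 10 higher of 96.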

How the data were processed

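RNA from 4 muscles of C57BL/6J mice was sequenced as strand-specific total RNA libraries after ribosomal RNA removal. The authors quantified reads with the ArrayStudio pipeline against mm10 with their own RefSeq-derived gene model, and deposited raw counts per gene for each library. No version of ArrayStudio was given. Where a symbol had several rows, the row with most counts was kept (633 of 25091 rows left out, 0.0335% of counts).

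Here the deposited counts were tested with edgeR 4.0.16 (R 4.3.3), using TMM scaling, filterByExpr, the quasi-likelihood test and Benjamini-Hochberg adjustment over all genes tested, and a gene was called at an adjusted p below 0.05. The SE of a log2 fold change is its size divided by the square root of F. Each sex and muscle was fitted alone over its 6 ages, muscles were compared within each sex (at 6 months for levels, at 6 and 27 months for changes), and the sexes within each muscle. Levels are CPM with TMM factors over all libraries. The GC content of a gene is the mean over its GENCODE M21 transcripts, for 13629 of 14182 genes. Log2 CPM used a prior count of 0.5. For trends, fitted over log age, the line or logistic curve had to be more than 6 BIC units below the constant, and the logistic more than 2 below the line. CPM per kb used the union of GENCODE M21 exons. Scripts were tested on simulated data, in which changes of 1.5-fold were often missed.

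Groups came from sample labels. The 9 genes and all lists were chosen with earlier results of these data known. The text names all members, up to 4 genes of each other list (those called at 27 months in one direction in most sets) and the 5 genes with patterns most like Pdgfra and most like the mean of the members. Alternatives were RLE factors, no filter, limma-voom (limma 3.58.1), DESeq2 1.42.0, Bonferroni, a 1.5-fold minimum, the replicate number as a block, the run of sample numbers as a term, and leaving out libraries with liver transcripts. Leaving out the 11 GC-dependent libraries was chosen after seeing the data. With 1 exception (Ccn2), all list genes were found. Depth limited no member.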

Additional observations from a re-analysis of the deposited data

Results flagged for a closer look

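In 43 of 432 gene and group combinations, 1 library's highest or lowest value stood apart from the rest of its group by Dixon's criterion, which chance meets in about 1 in 20. Of these, 21 came from the GC-dependent libraries, 15 of them for Pi16 or Clec3b, and 19 were in diaphragm. The explanations for the separate values were not tested.

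In GC-dependent diaphragm libraries Pi16 was lowest of its group at 5.71 CPM in female replicate 2 at 6 months, 6.59 CPM in female replicate 0 at 21 months, 4.10 CPM in female replicate 0 at 27 months and 1.72 CPM in male replicate 2 at 6 months. Clec3b was lowest in the same 4 libraries, at 0.753, 0.963, 0.572 and 0.418 CPM. It was also lowest in female replicate 3 at 24 months (4.62 CPM), male replicate 6 at 24 months (8.06 CPM) and male replicate 6 at 27 months (1.24 CPM). In the opposite direction, Pdgfra (129 CPM) and Cd34 (98.1 CPM) were highest in female replicate 0 at 27 months, and Cd34 (151 CPM), Angptl1 (92.6 CPM) and Mfap5 (38.4 CPM) in male replicate 2 at 6 months. In GC-dependent gastrocnemius libraries the separate values were high: Pi16 at 35.7 CPM, Cd34 at 47.9 CPM and Clec3b at 20.4 CPM in female replicate 0 at 27 months, and Pi16 at 27.6 CPM and Clec3b at 22.0 CPM in male replicate 7 at 12 months.

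Ly6a was highest in male replicate 8 at 24 months in gastrocnemius (63.2 CPM), soleus (136 CPM) and TA (96.1 CPM), and Pi16 was highest in that soleus library (65.8 CPM). The diaphragm library with this number and age had Ly6a at 26.6 CPM, the lowest of its group. The labels do not say whether these 4 libraries came from the same mouse. In male diaphragm at 24 months, replicate 4 was separate with Ly6a at 89.4 CPM and Mfap5 at 10.2 CPM. In male soleus at 6 months, replicate 6 was highest for Dpp4 (13.7 CPM), Cd34 (60.8 CPM) and Clec3b (23.2 CPM).

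The other separate high values were Pdgfra in female soleus at 21 months (57.4 CPM), Ly6a in female soleus at 27 months (46.0 CPM), Angptl1 in male soleus at 18 months (17.0 CPM), and in male gastrocnemius Smoc2 at 24 months (71.0 CPM) and Angptl1 at 27 months (8.57 CPM). Separate low values were Clec3b in female gastrocnemius at 21 months (11 CPM) and female soleus at 27 months (2.98 CPM), Smoc2 in female soleus at 12 months (33.2 CPM), Pdgfra (28.3 CPM) and Ly6a (16.0 CPM) in female TA at 18 months, Dpp4 in female TA at 27 months (2.98 CPM), Angptl1 in male diaphragm at 27 months (9.05 CPM) and Cd34 in male TA at 6 months (24.6 CPM).

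By the interaction tests described above, the change from 6 to 27 months differed between groups for 6 combinations. Dpp4 in TA differed by 0.91 (log2) between females and males. In females Smoc2 differed by -0.65 between diaphragm and gastrocnemius and by -0.62 between diaphragm and TA, Angptl1 by -0.79 between diaphragm and TA, and Dpp4 by -0.77 and Pdgfra by -0.53 between soleus and TA.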

How the results depend on the processing

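Of 360 age combinations, 83 to 99 were lower under RLE factors, no filter, limma-voom, DESeq2, the run of sample numbers as a term, and without the liver-carrying or the GC-dependent libraries, against 89 as reported. Bonferroni adjustment left 15 and a 1.5-fold minimum 37. The run term gave 1 higher call (Ly6a in female diaphragm at 27 months). At 27 months Bonferroni left 1 in female diaphragm, 3 in female gastrocnemius, 2 in female soleus, 0 in female TA, 1 in male diaphragm, 1 in male gastrocnemius and 2 in male TA. The 1.5-fold minimum left 0 in female gastrocnemius, 0 in female TA, 3 in male gastrocnemius and 4 in male TA. Both settings are stricter by construction. Shares of all genes under Bonferroni, the 1.5-fold minimum, DESeq2 or the run term are not given. The counts under these settings therefore cannot be set against all genes. Female TA had 2 under DESeq2 and 2 without the liver-carrying libraries. Male diaphragm had 5 without the GC-dependent libraries and 1 with the run term. Male soleus had 1 under DESeq2 and 4 with the run term. The sexes at 6 months gave 2 without a filter. Changes between muscles in females gave 9 without the GC-dependent libraries and 3 under limma-voom. The count of rising trends was 2 with age in months, 0 with BIC margins of 10 and 4, and 2 with RLE factors. Signs that turned were all of changes without a call: Dpp4 in female TA was -0.037 without the liver-carrying libraries and Ly6a in male soleus -0.028 with the run term. The cause was not tested.

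Replicate numbers were checked for pairing. Between muscles of an age, libraries with the same number had a median correlation of 0.08 (-0.49 to 0.80, 599 pairs, 259 above 0.1). The numbers were not taken as pairs, because the labels do not tie libraries to animals. The median was 0.19 for gastrocnemius and TA (68 of 102 pairs above 0.1), 0.15 for soleus and TA (64 of 101) and 0.12 for gastrocnemius and soleus (56 of 103), and 0.0076 to 0.015 for pairs with diaphragm, against -0.03 to 0.00 for different numbers. At 6 months gastrocnemius and TA libraries with the same number had medians of 0.20 in females and 0.32 in males. For different numbers these were -0.04 and -0.09. The other limb pairs with the same number had medians of 0.15 to 0.23 at 6 months. Tests between limb muscles treated these libraries as independent, so they ignore a possible pairing. With the replicate number as a block 89 of 360 were lower, muscles at 6 months gave 42 and 40 of 54, their changes in females 7, the sexes differed in change for 2 combinations, rising trends were 2, and signs turned for Smoc2 in female gastrocnemius (0.0050) and female TA (0.0041), Dpp4 in female TA (-0.032) and Ly6a in male soleus (-0.085). Groups of 6 or more were not refitted without single libraries.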
